A study of Sus scrofa with 85 samples.

Results

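ZBTB16 (ENSSSCG00000030095 in the count table, 1 of 31907 genes) was followed in myocardium and blood of swine through a myocardial infarction. The gene was chosen by its values in these libraries, from the study's contrast of the non-infarcted region at 1–3 h with baseline. Contrasts with baseline, and those with the non-infarcted libraries of 1–3 h, are therefore given as descriptions without a test. Libraries were taken by a fixed rule on the counts: a total of at least 1000000, and 7 to 60% of all counts in the 10 most counted genes. The rule kept 57 of 85 libraries, 45 of the 62 from micro-endomyocardial biopsies (micro-EMB) and 12 of the 23 from blood. Micro-EMB are very small samples of the left ventricular wall, taken with a catheter-based device. Among micro-EMB the share of the 10 most counted genes was 6.33% in the library just outside the lower limit and 11.7% in the one just inside. At the upper limit these shares were 63.9% outside and 46.7% inside.

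The animals were 3 female farm pigs of mixed Yorkshire and Swedish breed, numbered 1640, 1644 and 5385. In each, a balloon closed the distal left anterior descending coronary artery for 1 hour and was then released. All animals were operated under general anaesthesia and received amiodarone just before the intervention and again after 1 hour. Meloxicam and buprenorphine were given once daily only after the intervention. Exposure to these agents thus differed between timepoints and cannot be told apart from time after infarction. No sham-operated animal is among the groups. Biopsies labelled apical were aimed at the infarcted region and those labelled lateral at the non-infarcted region. They were taken during the occlusion (0–1 h), after reperfusion (1–3 h) and at 2 and 14 days. The paper describes this aiming as partly inaccurate. In its clustering, 2 non-infarcted samples grouped with infarcted samples of 1–3 h, and it holds that these most likely came from or near ischemic tissue. Region below means the label. The baseline biopsies, taken before the occlusion and labelled apical, served both regions. According to the paper they were not aimed at a particular region, so they are not matched by site to either. Blood was sampled at baseline, 1–3 h, 2 days and 14 days. The kept libraries of a group are repeated biopsies of the same 3 animals, so the spread within a group holds differences between sampling sites as well as between swine.

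ZBTB16, also called PLZF, is a transcriptional repressor of the BTB zinc finger family. It binds DNA with its zinc fingers, and its BTB domain recruits corepressors with histone deacetylases. The gene is known as a direct target of the glucocorticoid receptor, as a regulator of natural killer T cells and of spermatogonial stem cells, and as a partner of the angiotensin AT2 receptor in the heart.

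In the RefSeq annotation of Sscrofa11.1, ZBTB16 lies on the plus strand of chromosome 9, from 41639536 to 41839254. There are 3 transcript models of 7 exons each, which start at 41639536, 41639880 and 41641352. All share the coding sequence that opens in exon 2, runs from 41643216 to 41833976 and encodes 673 residues, and exon 7 spans 41833747 to 41839254. A long non-coding gene on the minus strand, LOC106504875, ends 65 bases before the first start. LOC106504879 and LOC110255434 lie inside ZBTB16 on its own strand, in introns 2 and 3, and overlap no exon of the longest model. Counting took no account of strand, so reads of any transcript that overlaps ZBTB16 exons cannot be told from its own. The 250 bases before the first start, chr9:41639286-41639535 on the plus strand, are shown because this is the stretch next to which transcription of the longest model begins, with CpG dinucleotides in capitals.
ZBTB16 upstream window: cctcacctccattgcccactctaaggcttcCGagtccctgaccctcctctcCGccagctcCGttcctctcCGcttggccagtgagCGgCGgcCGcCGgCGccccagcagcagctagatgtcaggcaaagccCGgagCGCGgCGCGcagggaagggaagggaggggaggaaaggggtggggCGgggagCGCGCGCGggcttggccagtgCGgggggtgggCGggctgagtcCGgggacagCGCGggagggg
The window had a GC content of 73.2% and 24 CpG dinucleotides, against medians of 57.6% and 12 over 19530 windows of the same length before annotated genes. The palindromic glucocorticoid response element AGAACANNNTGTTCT, its half-site AGAACA and the E-box CACGTG, each searched on both strands, were not among its letters. They occurred in 0.005%, 10.3% and 6.39% of all windows, and the half-site is part of the palindrome. The palindromic glucocorticoid response element also occurred 0 times in the 199719 bases of the gene, and 3.32% of stretches of that length held it. A looser palindrome, GNACANNNTGTNC, was also absent from the window (0.22% of windows). It occurred 6 times in the gene, where stretches of the same length elsewhere held a median of 2 and 5.71% held at least as many. These 6 matches are shown because the gene is best known as a glucocorticoid receptor target, with the fixed letters of the motif in capitals. The first lies in intron 2, the next 4 in intron 3 and the last in intron 4.
Site 1, chr9:41731824-41731836: GaACAacaTGTgC
Site 2, chr9:41741866-41741878: GtACAgtgTGTaC
Site 3, chr9:41744504-41744516: GaACAcacTGTaC
Site 4, chr9:41745609-41745621: GtACActgTGTgC
Site 5, chr9:41755795-41755807: GaACAtgaTGTcC
Site 6, chr9:41803848-41803860: GaACActcTGTtC
A match of letters is a description of the sequence and no evidence of binding.

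Kept libraries held 3499443 to 16659110 counts. ZBTB16 itself had a median of 1434 counts and at most 8175 in micro-EMB, and a median of 370 and at most 1294 in blood, so counting error was small beside the difference between biopsies. No pair of libraries of a group held identical counts, and no pair of kept libraries of a group agreed within sampling noise. Levels below are log2 CPM (CPM, counts scaled to a common library total after TMM, on the log2 scale with a prior count of 2). The cardiomyocyte markers checked the tissue label. In 6 of the 45 micro-EMB libraries their summed CPM was 62.6 to 511, against 3251 to 28000 in the other 39 and 34.8 to 115.3 in blood. The same 6 libraries held 18570 to 109500 CPM of fibroblast and collagen markers, against 996 to 29540 in the others. They were picked by a limit of 25 on the second principal component, where they had 37.4 or more against at most 14.2. They are called the fibrous-side libraries below, and results are given with and without them. In 2 of the 6, both of swine 1644 (its baseline library and an infarcted library of 1–3 h), adipocyte markers summed to 2736 and 734 CPM, against at most 177.6 in the other 43. Their part in the level of ZBTB16 was not tested. Of the 12 cardiomyocyte markers, 6 could be matched to the table. The micro-EMB libraries of swine 5385 stood apart in erythroid markers. Their sum was 677.5 to 9442 CPM (median 4361) in all 16, against 16.2 to 44.2 in the 15 of swine 1640, a median of 24.9 in the 14 of swine 1644 and 2890 to 10510 in blood. HBB, a globin chain of haemoglobin, made nearly all of it, while AHSP, which stabilises free globin in red cell precursors, was at 0 in 12 of the 16, and T and NK cell markers in these 16 were at 17.4 to 70.5 CPM, against 619 or more in blood. Results that rest on swine 5385 are also given without it.

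Across myocardium ZBTB16 had a mean level of 7.69 ± 1.11 log2 CPM (SD, n = 45), from 5.24 to 10.22. In blood it was 5.35 ± 0.51 (SD, n = 12), from 4.16 to 6.11. The plot of levels by group shows every kept library. Since these are bulk libraries, fewer cells that hold the transcript and less transcript per cell cannot be told apart.

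**Figure D1:**
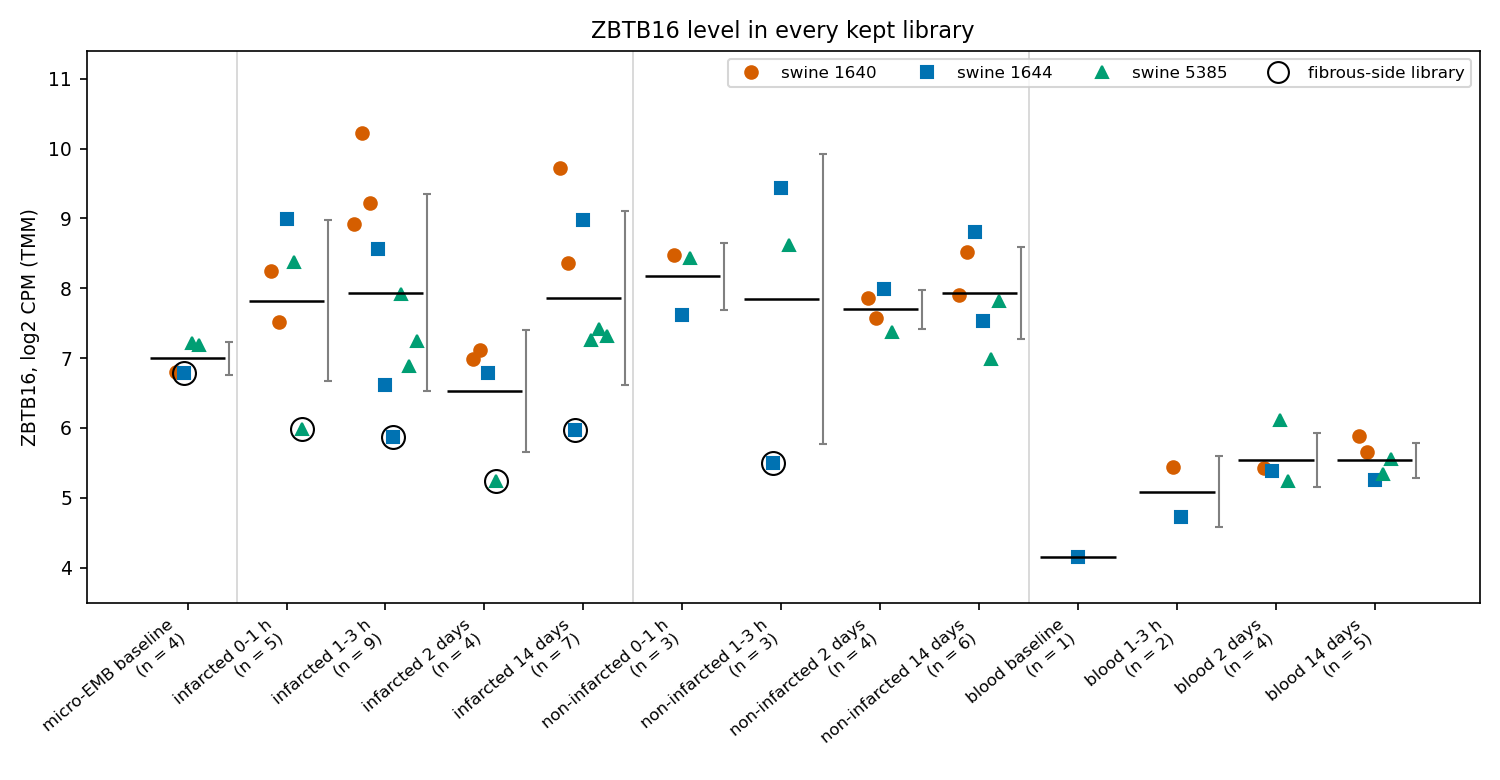
ZBTB16 in log2 CPM (y axis) in each of the 57 kept libraries, by region and timepoint (x axis); colours and shapes mark the swine, circles the 6 fibrous-side libraries, black lines the group means and grey bars 1 SD. Baseline and infarcted 2 days lie lowest among the micro-EMB groups, each circled library is the lowest of its group, and blood lies between 4.16 and 6.11.

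At baseline the 4 kept libraries lay close together. Swine 1640 had a level of 6.80, swine 1644 of 6.78 and swine 5385 of 7.21 and 7.19 log2 CPM, which gave a mean of 7.0 ± 0.24 (SD, n = 4). The library of swine 1644 is on the fibrous side, and without it the mean was 7.07.

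In the infarcted region during the occlusion, 4 of 5 libraries lay above the highest baseline library. Swine 1640 had 8.24 and 7.52, swine 1644 had 9.00, and swine 5385 had 8.37 and 5.98 log2 CPM, the last from the fibrous side. The mean was 7.82 ± 1.16 (SD, n = 5), or 8.28 without that library. At 1–3 h the 9 libraries ranged from 5.87 to 10.22 with a median of 7.91 and a mean of 7.94 ± 1.41 (SD, n = 9), and 6 of them were above every baseline library while 2 were below every one. The swine differed here. All 3 libraries of swine 1640 were high, at 8.93, 10.22 and 9.22, while swine 1644 had 8.56, 6.61 and, on the fibrous side, 5.87, and swine 5385 had 7.91, 6.88 and 7.25.

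At 2 days no library of the infarcted region exceeded the highest baseline library. Swine 1640 had 6.98 and 7.12, swine 1644 had 6.79 and swine 5385 had 5.24 log2 CPM, the last again from the fibrous side. The mean was 6.54 ± 0.87 (SD, n = 4), and 6.97 ± 0.17 (SD, n = 3) without that library. At 14 days the 7 libraries ranged from 5.97 to 9.72 with a median of 7.42 and a mean of 7.86 ± 1.25 (SD, n = 7), and 6 of 7 were above every baseline library. Swine 1640 and 1644 reached 9.72 and 8.98, whereas the 3 libraries of swine 5385 lay at 7.26, 7.42 and 7.31, little above its own baseline biopsies. The fibrous-side library of swine 1644 was at 5.97.

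In the non-infarcted region, all 3 libraries taken during the occlusion lay above baseline. Swine 1640 had 8.47, swine 1644 had 7.62 and swine 5385 had 8.43 log2 CPM, a mean of 8.17 ± 0.48 (SD, n = 3). The libraries of 1–3 h, the group from which the gene was chosen, were the most spread. Swine 1644 had 9.43 and, on the fibrous side, 5.49, and swine 5385 had 8.62, so the mean was 7.85 ± 2.08 (SD, n = 3) with the fibrous-side library and 9.03 without it.

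Both later timepoints of the non-infarcted region stayed within a narrower range. At 2 days swine 1640 had 7.86 and 7.58, swine 1644 had 7.99 and swine 5385 had 7.37, and all 4 libraries lay above every baseline library, with a mean of 7.70 ± 0.28 (SD, n = 4). At 14 days the 6 libraries ran from 6.99 to 8.81 with a mean of 7.93 ± 0.66 (SD, n = 6), and 5 of 6 were above baseline.

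Ordered by their means, the micro-EMB groups ran from non-infarcted 0–1 h over infarcted 1–3 h, non-infarcted 14 days, infarcted 14 days, non-infarcted 1–3 h, infarcted 0–1 h and non-infarcted 2 days to baseline and infarcted 2 days. Of the neighbours in this order, only non-infarcted 2 days and baseline lay further apart (0.70 log2 CPM) than the larger SD of the pair. The other neighbours did not differ beyond their spread.

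Each swine could also be set against its own baseline. Swine 1640 and 1644 had 1 kept baseline library each, and that of swine 1644 is on the fibrous side. Its differences therefore set mostly other tissue against a fibrous-side library. In swine 1640 the mean of the infarcted region differed from baseline on the log2 scale by 1.08 during the occlusion, 2.66 after reperfusion, and 0.25 and 2.24 at the later timepoints. In swine 1644 these differences, in the same order, were 2.21, 0.23, 0.01 and 0.69. In swine 5385 they were -0.02, 0.15, -1.96 and 0.13, and its only library of 2 days is on the fibrous side. In the non-infarcted region the difference from own baseline was positive in every swine with a kept library at each timepoint. It was 1.67, 0.83 and 1.23 at 0–1 h in swine 1640, 1644 and 5385, 0.68 and 1.42 at 1–3 h in swine 1644 and 5385, 0.92, 1.21 and 0.17 at 2 days and 1.41, 1.39 and 0.20 at 14 days. Over all micro-EMB groups, swine 1640 deviated by 0.58 from the group means, swine 1644 by -0.21 and swine 5385 by -0.37. Swine 5385 is also the animal with the high erythroid marker sums, whose part in its level of ZBTB16 was not tested. Over the 45 libraries ZBTB16 correlated with that sum at r = -0.19, and at -0.36 in the 39 outside the fibrous side. The sum separates swine 5385 from the other animals, so these values hold the difference between animals. HBB, which made nearly all of the sum, had r = 0.27 with values centred within each swine.

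The fitted differences from baseline, described without a test, were positive for 7 of the 8 groups. They were 1.09 (SE 0.73) at 0–1 h, 1.45 (SE 0.69) at 1–3 h and 1.27 (SE 0.70) at 14 days in the infarcted region, and -0.35 (SE 0.75) at 2 days. In the non-infarcted region the log2 fold changes were 1.21 (SE 0.55), 1.55 (SE 0.55), 0.71 (SE 0.52) and 1.05 (SE 0.49) at 0–1 h, 1–3 h, 2 days and 14 days. The 1–3 h value is for the contrast from which the gene was chosen, with a 95% interval of 0.39 to 2.71. It was 1.93 without the fibrous-side libraries. The study made this contrast with DESeq2 after excluding outlier samples with raised collagen genes, so neither value is the study's own. ZBTB16 was the only gene it reported as regulated there. Without swine 5385 the infarcted values were 1.59 (0–1 h), 2.09 (1–3 h), 0.22 (2 days) and 1.96 (14 days), so the sign at 2 days turned, and the non-infarcted values were 1.32, 1.72, 1.06 and 1.49.

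Tests were run on contrasts that had no part in choosing the gene, with 14 days as the reference within each region, by the quasi-likelihood test of edgeR, and p was adjusted after Benjamini and Hochberg over all genes of the fit. The question was whether the level changed between early and late biopsies after the baseline sampling. In the infarcted region at 1–3 h against 14 days the log2 fold change of ZBTB16 was 0.18 (SE 0.54, 95% interval -0.92 to 1.27, adjusted p = 0.886), with no difference detected in a contrast in which 5.19% of the 17929 genes tested passed. At 0–1 h it was -0.18 (SE 0.62, 95% interval -1.46 to 1.10, adjusted p = 1.00). At 2 days it was -1.62 (SE 0.71, 95% interval -3.08 to -0.16), with an unadjusted edgeR p of 0.0306 that did not hold after adjustment (adjusted p = 1.00). In this contrast 1 gene (0.00558%) passed with edgeR and 10 with DESeq2, and ZBTB16 stood at the 1.49th percentile of all log2 fold changes. Outside the fibrous side, the 3 libraries of 2 days lay at 6.79 to 7.12 and those of 14 days started at 7.26. How many of all genes separate these libraries in the same way was not counted, so this adds nothing to the test. Without the fibrous-side libraries the log2 fold change was -1.53, and it was -1.74 without swine 5385.

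In the non-infarcted region the level at 0–1 h differed from that at 14 days by 0.16 (SE 0.51, 95% interval -0.91 to 1.23, edgeR adjusted p = 0.963), and by -0.18 without swine 5385. At 2 days it differed by -0.34 (SE 0.47, 95% interval -1.33 to 0.65, edgeR adjusted p = 0.799). Between the regions, infarcted minus non-infarcted, the log2 difference was -0.11 (95% interval -1.62 to 1.39) at 0–1 h, -1.08 (95% interval -2.56 to 0.40) at 2 days and 0.22 (95% interval -0.93 to 1.37) at 14 days, with edgeR adjusted p of 1, 1.00 and 0.887. The change from 14 days to 0–1 h differed between the regions by -0.33 (95% interval -2.22 to 1.56, edgeR adjusted p = 0.965). Each of these intervals allows a change of more than 2-fold in at least 1 direction, so a difference of that size is not excluded there.

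In those contrasts few genes of any kind passed. The edgeR share was 0% for infarcted 0–1 h against 14 days, with 597 genes at an unadjusted p under 0.05 and 8 genes called by DESeq2. It was 0% for both non-infarcted contrasts, with 772 genes at 0–1 h and 1107 at 2 days under the same unadjusted limit and 36 and 4 called by DESeq2. It was also 0% for the 3 contrasts between regions, with 0.956%, 3.41% and 5.31% of genes at an unadjusted p under 0.05 at 0–1 h, 2 days and 14 days and 0, 5 and 5 called by DESeq2, and for the difference between regions in the change, with 371 and 0. The plot of contrasts sets the tested and the described values side by side.

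**Figure D2:**
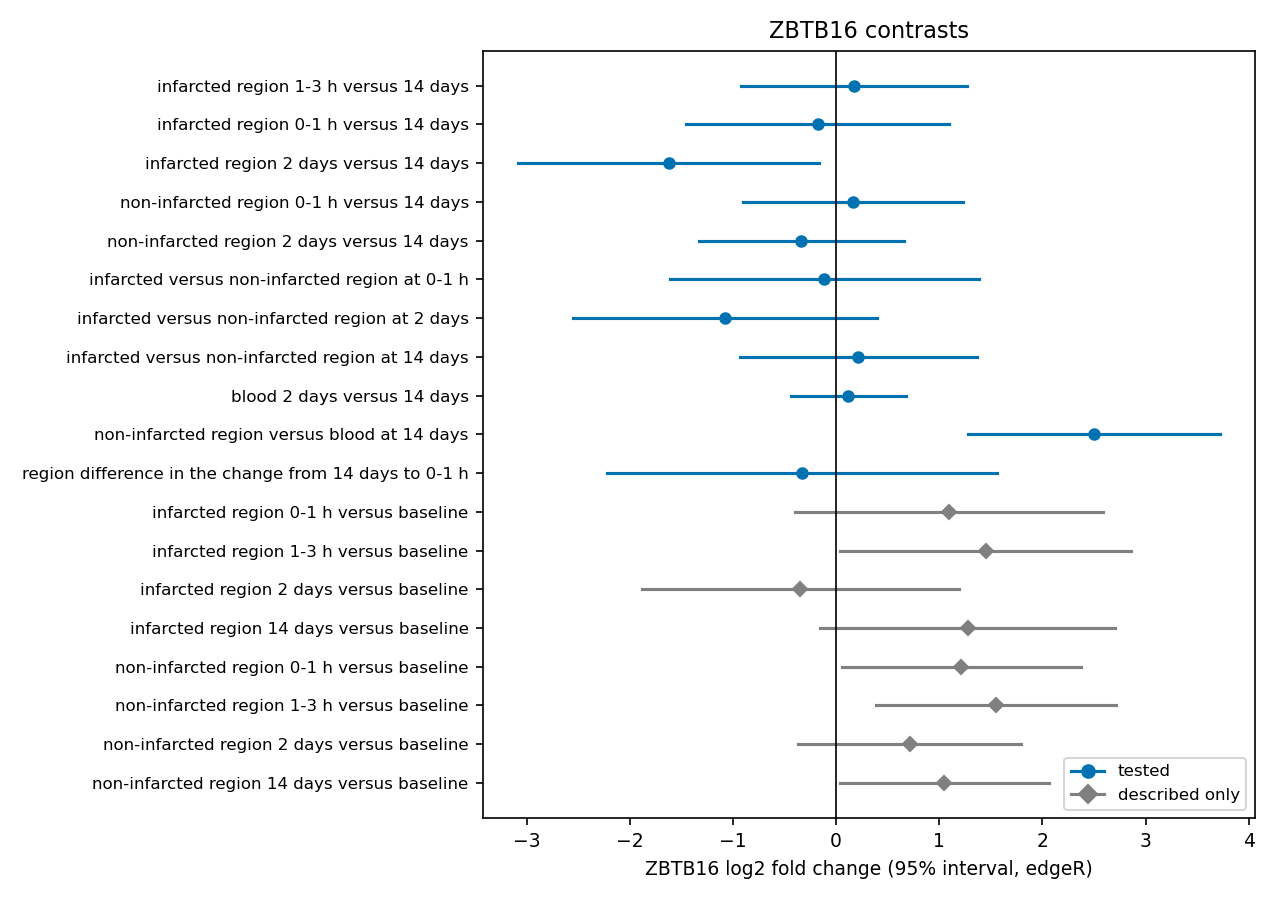
Log2 fold change of ZBTB16 (x axis) for each contrast (y axis), as points with 95% intervals from edgeR; blue circles are tested contrasts and grey diamonds are contrasts described without a test. Non-infarcted region against blood at 14 days (2.50) has its whole interval well above 0, and infarcted 2 days against 14 days (-1.62) is the one tested contrast with an interval below 0.

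Kept blood libraries held less ZBTB16 than most myocardial ones, but the level in blood depended on which libraries were kept. With every library of at least 1000000 counts the blood means were 6.38 at baseline, 6.23 at 1–3 h, 6.20 at 2 days and 6.24 at 14 days, and 10 blood libraries left out for a low share of the 10 most counted genes had 6.90 to 7.91 without TMM scaling. Of the kept libraries, the single kept baseline library, of swine 1644, had 4.16 log2 CPM, and at 1–3 h swine 1640 had 5.44 and swine 1644 had 4.73. At 2 days swine 1640 had 5.43, swine 1644 had 5.38 and swine 5385 had 6.11 and 5.24, a mean of 5.54 ± 0.39 (SD, n = 4). At 14 days swine 1640 had 5.88 and 5.66, swine 1644 had 5.26 and swine 5385 had 5.33 and 5.55, a mean of 5.54 ± 0.25 (SD, n = 5). The 2 later timepoints overlapped, with a log2 fold change of 0.12 at 2 days against 14 days (95% interval -0.44 to 0.68, edgeR adjusted p = 0.908). No gene passed in that contrast (0%), with 1214 at an unadjusted edgeR p under 0.05 and 10 called by DESeq2. Without swine 5385 the log2 fold change was -0.21, and 86 genes passed.

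At 14 days the non-infarcted region exceeded blood by 2.50 on the log2 scale (SE 0.61, 95% interval 1.28 to 3.72, 5.66-fold, edgeR adjusted p = 0.000771). The 6 myocardial libraries, from 6.99, and the 5 blood libraries, up to 5.88, did not overlap. This was a contrast of unlike tissues in which 37.2% of 18441 genes passed, 19.6% higher and 17.6% lower in myocardium, and the median over all genes was 0.39. Without swine 5385 the difference was 2.68 (edgeR adjusted p = 0.0163). Within each swine and timepoint with both kinds of library, the non-infarcted mean was above blood in 7 of 7 pairings, by 1.70 to 2.91. The infarcted region or baseline was above blood in 8 of 9, and the exception was swine 5385 at 2 days (-0.43), whose only library is on the fibrous side. T and NK cell markers, whose cells include some known for ZBTB16, summed to 619 to 1402 CPM in blood and to 17.4 to 91.6 CPM in the 39 micro-EMB libraries outside the fibrous side. Over the 45 micro-EMB libraries their sum correlated with ZBTB16 at r = 0.02.

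Each of the 6 fibrous-side libraries had the lowest ZBTB16 level of its group. Over the 45 micro-EMB libraries, ZBTB16 correlated with the summed cardiomyocyte markers at r = 0.63, with macrophage markers at -0.56 and with fibroblast markers at -0.49. Without the 6 libraries (n = 39) these values were 0.16, -0.30 and -0.14. All 5 cardiomyocyte markers tested had a positive r, between 0.55 and 0.67, which became -0.06 to 0.26 without the 6. The 6 macrophage markers were all negative, from -0.55 to -0.37, and stayed negative without the 6, from -0.32 to -0.13. ZBTB16 had r = -0.28 with the share of the 10 most counted genes and r = 0.37 with the log10 of the total count. The part of tissue composition and depth in the level of ZBTB16 was not tested.

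Genes whose level followed ZBTB16 were ranked by Pearson's r of log2 CPM over the 45 micro-EMB libraries among 17964 genes. The points share 3 animals, repeated sampling, groups and library depth, so r is a description. MSRB3, a methionine sulfoxide reductase, ranked highest at r = 0.75, followed by DMD (0.74), which encodes dystrophin of the muscle membrane. PDE7A, a phosphodiesterase that breaks down cAMP, and ZDHHC2, a palmitoyltransferase, both had 0.72, as did PPARGC1A, the coactivator of mitochondrial biogenesis. DYNC1I1, an intermediate chain of cytoplasmic dynein, had 0.71. The other members of the first 10 have no symbol in the reference table and are named by identifier, ENSSSCG00000048702 and ENSSSCG00000046986 at 0.72 and ENSSSCG00000050303 and ENSSSCG00000041239 at 0.71. Over the same genes, 222 (1.24%) had r of 0.6 or more and 28 had -0.6 or less, and the median r was 0.02.

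At the other end, UNC93B1, a chaperone of endosomal Toll-like receptors, had r = -0.73. RNPEP, an aminopeptidase, had -0.70. IFI30, a lysosomal thiol reductase of antigen processing, and PIK3R2, a regulatory subunit of phosphoinositide 3-kinase, both had -0.66, and RAB13, a small GTPase of vesicle traffic, had -0.65. IFI30 and PIK3R2 are neighbours on the same strand.

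The ranking was different without the fibrous-side libraries, as the panels of ZBTB16 against single genes show. DMD had a mean of 8.06 log2 CPM in the 6 and 11.37 in the other 39, PPARGC1A 2.64 and 7.71, and MSRB3 6.75 and 8.40. UNC93B1 ran the opposite way, with 5.13 in the 6 and 3.85 in the others. In the 39 libraries r fell to 0.58 for MSRB3, 0.48 for DMD, 0.58 for PDE7A, 0.59 for ZDHHC2, 0.42 for PPARGC1A and 0.35 for DYNC1I1. UNC93B1 remained at -0.58, while RNPEP had -0.51, IFI30 -0.40, PIK3R2 -0.45 and RAB13 -0.35. No gene reached 0.6 in the 39, where ADCY5, an adenylyl cyclase of the heart, came nearest, ahead of ZDHHC2, MSRB3 and PDE7A. Of the 10 genes first in the 45 libraries, 3 were among the first 10 in the 39 and 9 were among the first 100. Between the rankings, 30 of the first 100 were shared.

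**Figure D3:**
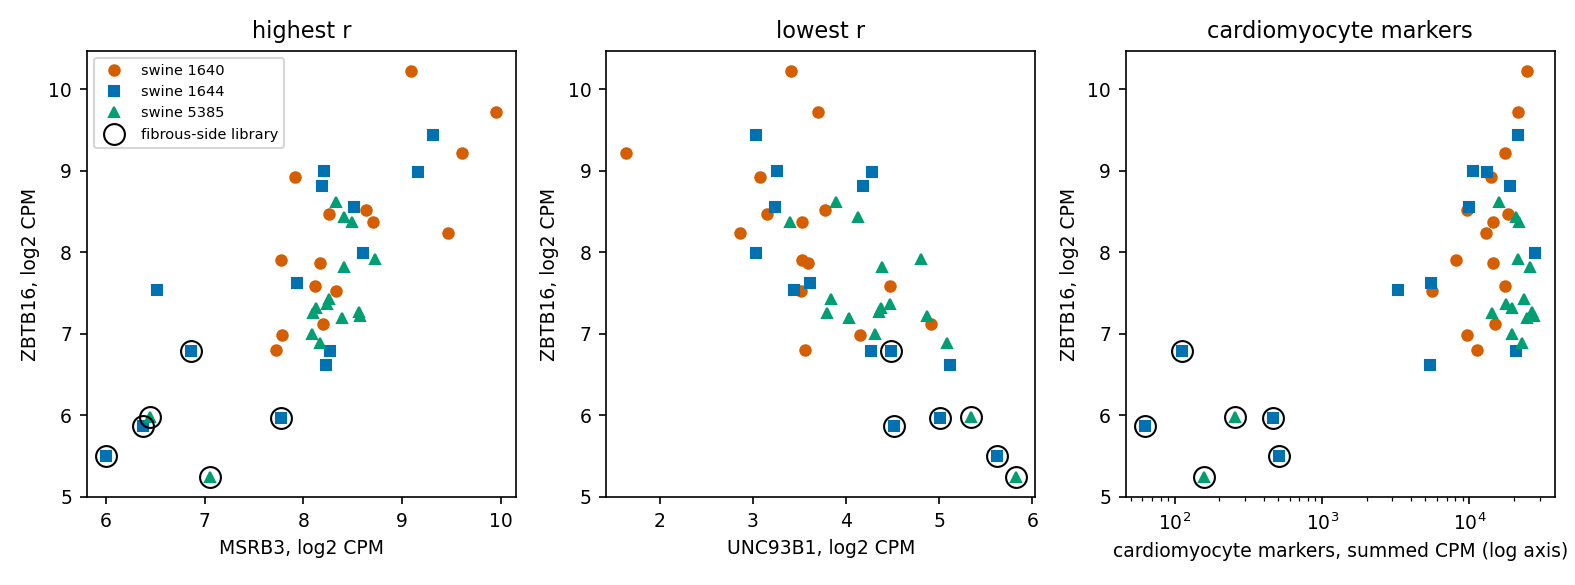
ZBTB16 in log2 CPM (y axes) against MSRB3 and UNC93B1 in log2 CPM and against the summed CPM of cardiomyocyte markers on a log axis (x axes), 1 point per micro-EMB library (n = 45); colours and shapes mark the swine and circles the fibrous-side libraries. The circled libraries lie at the low end of ZBTB16 and of the cardiomyocyte markers (62.6 to 511 CPM), and the spread of ZBTB16 among the others is not ordered by that sum (r = 0.16, n = 39).

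With the fibrous-side libraries still included, the correlations were of similar size when animals or groups were levelled. By Spearman's rho over the 45 libraries they were lower, at 0.51 to 0.68 for the first 10 genes. With values centred within each swine the first 10 genes had r between 0.68 and 0.77, and with values centred within each group between 0.68 and 0.80. In the infarcted region alone (n = 25) they had 0.73 to 0.83 and in the non-infarcted region alone (n = 16) 0.49 to 0.87. All 10 stayed among the first 100 genes in the former and 5 in the latter. Without swine 5385 (n = 29) they had 0.72 to 0.82. The plot of correlations gives r for the 15 named genes with and without the fibrous side.

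**Figure D4:**
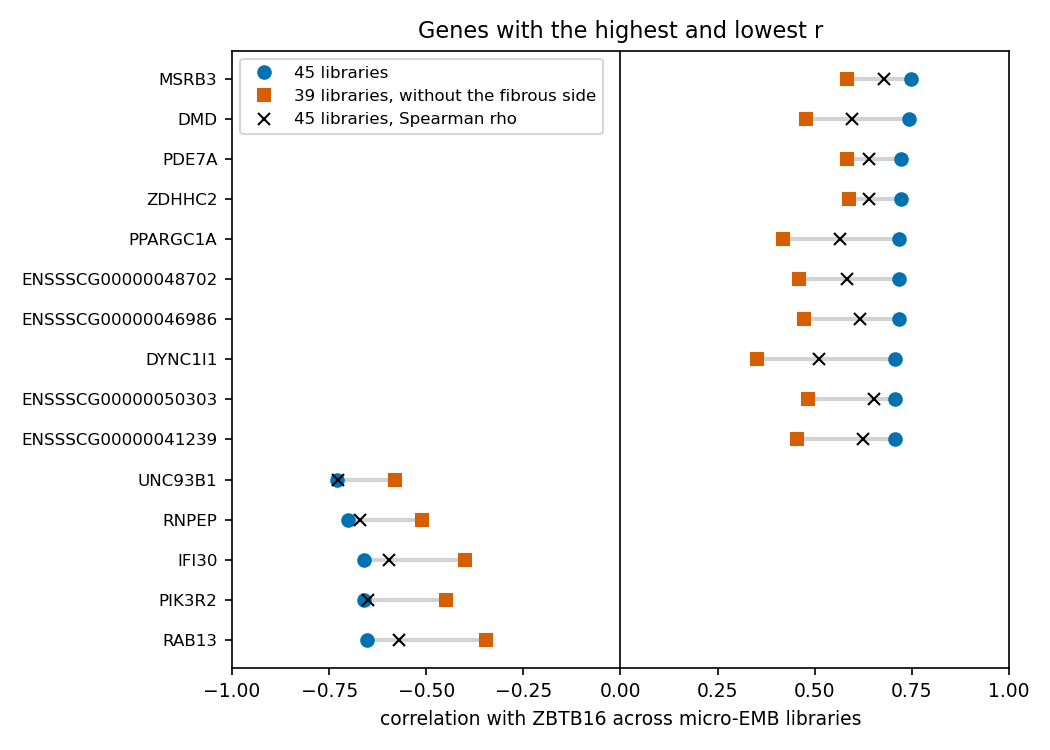
Correlation with ZBTB16 (x axis) of the 10 genes with the highest and the 5 with the lowest Pearson r (y axis), over 45 micro-EMB libraries (circles), over the 39 outside the fibrous side (squares), and as Spearman rho over the 45 (crosses). All 15 keep their sign, and all lie nearer to 0 without the fibrous side, with MSRB3 at 0.75 and 0.58 and UNC93B1 at -0.73 and -0.58.

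Genes of glucocorticoid action were set beside ZBTB16 because the hormone is its best known inducer. Of 40 listed genes, 35 were in the table and 30 were tested in the infarcted region at 1–3 h against 14 days, where 8 rose (3.11% of all genes did) and 1 fell (2.09% of all genes did). Their median log2 fold change was 0.95, against 0.09 over all genes and 0.18 for ZBTB16. FKBP5, a cochaperone of the glucocorticoid receptor, rose by 1.27 (SE 0.30, edgeR adjusted p = 0.0151), from a mean of 5.89 ± 0.55 log2 CPM (SD, n = 7) at 14 days to 7.09 ± 0.81 (SD, n = 9) at 1–3 h. ANGPTL4, an inhibitor of lipoprotein lipase, rose by 3.87 (SE 0.71, edgeR adjusted p = 0.00341), and PDK4, which restrains glucose oxidation, by 4.25 (SE 1.12, edgeR adjusted p = 0.0253). SGK1, a kinase induced by corticosteroids, rose by 1.68, NFKBIA, the inhibitor of NF-kB, by 1.18 and the BTB zinc finger repressor BCL6 by 1.32, and CDKN1A and DUSP1 were also called. The gene that fell, SESN1 (-1.12), was named after its values were seen.

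These calls depended on taking each biopsy as a replicate. With counts summed per swine none of the lists had a call in this contrast, and no gene of the whole table passed with edgeR (1926 at an unadjusted p under 0.05). Without swine 5385 no list had a call either, and no gene of the table passed with edgeR (1554 at an unadjusted p under 0.05). The split of all calls was 59.8% higher by edgeR with TMM, 71.4% with RLE size factors, 65.4% by DESeq2 and 91.3% with every library of at least 1000000 counts.

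Of the 8 genes of this list that rose, PDK4 alone was among its 3 genes with the highest r to ZBTB16. The highest r over the 45 libraries were those of HIF3A, a hypoxia-inducible factor subunit, at 0.61, TXNIP, an inhibitor of thioredoxin, at 0.52 and PDK4 at 0.52, and they were 0.40, 0.40 and 0.36 in the 39. HIF3A and TXNIP had log2 fold changes of -0.62 and -0.82 at 1–3 h against 14 days and did not pass. FKBP5 had r = 0.22 and SGK1 -0.20. Over the 30 genes, 14 had a positive r with a median of -0.02, and in the 39 libraries 24 did, with a median of 0.13 against 0.06 for all genes. The plot of log2 fold changes sets these genes and those of the next lists beside ZBTB16.

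**Figure D5:**
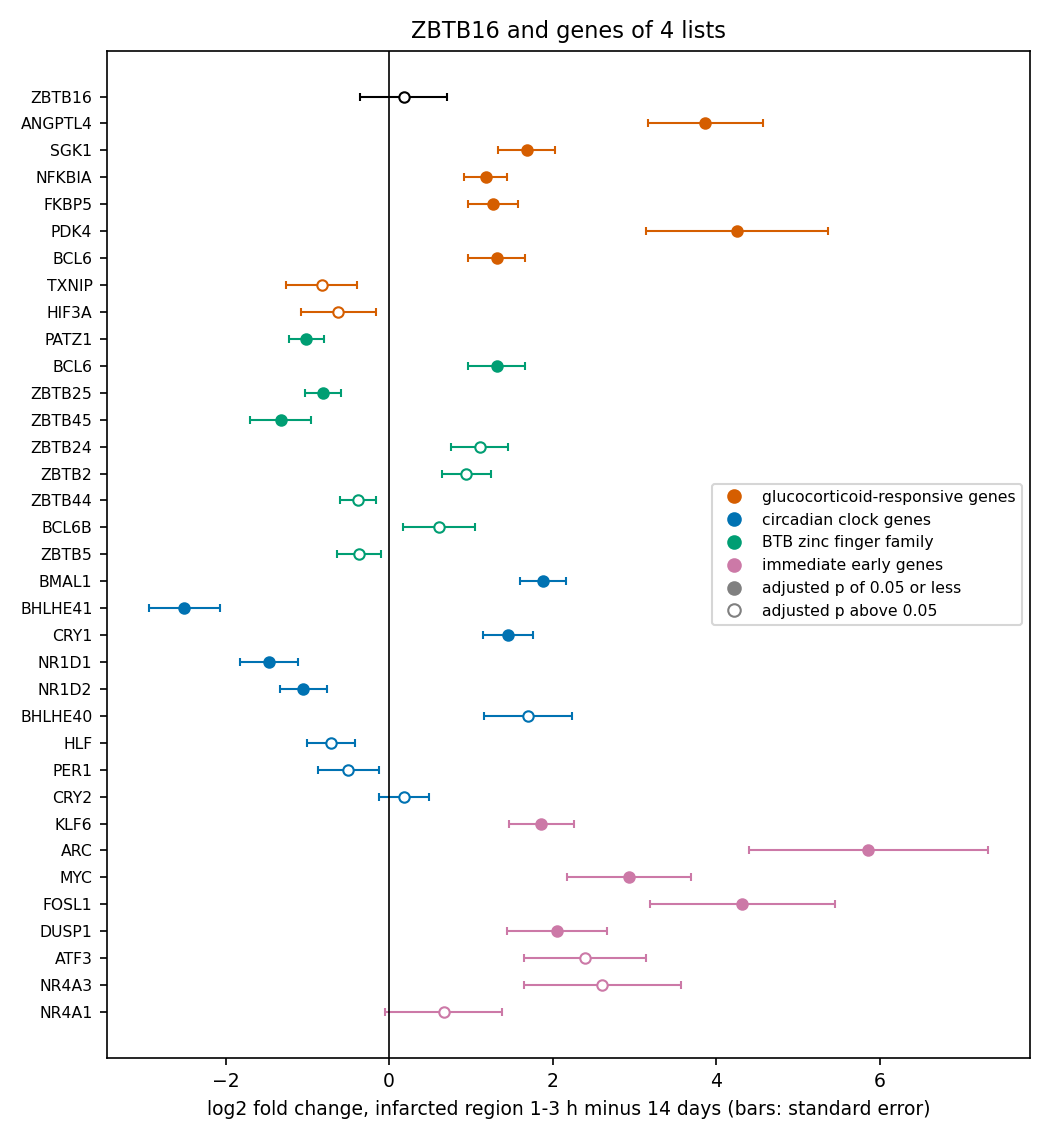
Log2 fold change at 1–3 h against 14 days in the infarcted region (x axis, bars 1 SE) of ZBTB16 and of genes of 4 lists chosen by the smallest adjusted p or the highest r with ZBTB16 (y axis); filled points have an edgeR adjusted p of 0.05 or less and open points do not. ZBTB16 lies at 0.18, while ANGPTL4 (3.87), PDK4 (4.25) and ARC (5.86) lie far to the right and BHLHE41 (-2.50) to the left.

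None of the 11 steroid receptors and cofactors passed in that contrast by edgeR with TMM. DESeq2 and edgeR with RLE size factors each called 1 as higher at 1–3 h, beside 1272 and 773 of all 17929 genes. The glucocorticoid receptor gene NR3C1 had a log2 fold change of 0.46 and r = 0.05 with ZBTB16, and the mineralocorticoid receptor gene NR3C2 had 0.05 and r = 0.56, the latter falling to 0.04 without the fibrous side. NCOA1 and HSD11B2 followed at r of 0.32 and 0.28. Of the 21 partners and corepressors tested, 1 rose, the BTB protein BCL6, near the 3.11% of all genes that did. NCOR1 and HDAC3, a corepressor and a histone deacetylase, had log2 fold changes of 0.03 and -0.08 and did not pass. The partner with the highest r was GATA4, a cardiac transcription factor, at 0.40, which became 0.01 in the 39 libraries, before RUNX1T1 and AGTR1 at 0.14 each.

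In the BTB zinc finger family, 1 of 35 tested genes rose and 3 fell, where 3.11% of all genes rose and 2.09% fell. PATZ1 fell by 1.01 (SE 0.21, edgeR adjusted p = 0.00776), ZBTB25 by 0.81 and ZBTB45 by 1.32 on the log2 scale, and BCL6 rose. The family's median log2 fold change was -0.10. Its highest r with ZBTB16 were those of BCL6B (0.35), ZBTB5 (0.25) and ZBTB44 (0.15), all far below those of the genes ranked first.

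Clock genes moved in both directions, with 2 of 16 higher and 3 lower at 1–3 h than at 14 days, beside 3.11% and 2.09% of all genes. BMAL1, the activator of the clock, rose by 1.88 (SE 0.28, edgeR adjusted p = 0.00267) and CRY1, a repressor of it, by 1.45, while BHLHE41, NR1D1 and NR1D2 fell by 2.50, 1.47 and 1.05 on the log2 scale. The labels give no hour of sampling, so time of day and time after infarction cannot be told apart. The clock genes nearest to ZBTB16 by r were CRY2 (0.47), PER1 (0.37) and HLF (0.36), and PER1, which is also a glucocorticoid target, had 0.52 without the fibrous side. Immediate early genes rose in 5 of 19 cases, KLF6 by 1.86, ARC by 5.86, MYC by 2.94, FOSL1 by 4.32 and DUSP1 by 2.05, beside 3.11% of all genes, and none fell with edgeR or DESeq2. Their r with ZBTB16 had a median of -0.01 and a highest value of 0.33, for NR4A3, followed by ATF3 at 0.20 and NR4A1 at 0.15.

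Against baseline, the infarcted region at 1–3 h had 0.842% of genes higher and 0.781% lower, a split of 51.9% higher by edgeR with TMM, 65.6% with RLE size factors, 69% by DESeq2, 47.1% without the fibrous side and 29.2% with every library of at least 1000000 counts. In this contrast 4 of 19 immediate early genes rose, KLF6 (2.23), MYC (4.42), ATF3 (4.44) and FOSL1, and all 19 had positive log2 fold changes. DESeq2 called 16 of the 19 as higher, beside 974 of all 17929 genes. With counts summed per swine no list and no gene passed in this contrast with edgeR (2842 genes at an unadjusted p under 0.05), nor without swine 5385 (1559 genes). BMAL1 (1.51) and CRY1 (1.48) rose and ZBTB25 (-0.97) fell. None of the 30 glucocorticoid-responsive genes passed by edgeR with TMM, and 21 had positive log2 fold changes with a median of 0.59 against 0.12 over all genes. DESeq2 called 8 as higher, RLE size factors 2, the swine as a block 1 and the fit without the fibrous side 4 of 31.

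Against blood at 14 days, non-infarcted myocardium was higher in 9 and lower in 8 of the 30 glucocorticoid-responsive genes, beside 19.6% higher and 17.6% lower of all genes. KLF15 (3.81), HIF3A (2.85), KLF9 (2.11) and PER1 (2.02) were on the side of ZBTB16, and SGK1 (-2.17) and FKBP5 (-1.40) on the other. NR3C2 was higher in myocardium by 3.43 and NR3C1 had -0.22, which did not pass. In the BTB family 8 were higher and 16 lower of 35, with a median of -0.61, against the same shares and a median of 0.39 over all genes. Of the clock genes 6 of 16 were higher and 1 lower.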

How the data were processed

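RNA of micro-EMB and blood of 3 swine was sequenced with a stranded low-input kit (SMARTer Pico). The authors mapped reads to Sscrofa11.1 with STAR, assigned them to genes with featureCounts, and deposited raw counts of 85 libraries. Versions are not given in the sources used here. Counting was without strand, and PCR copies were not marked. Groups came from the sample labels.

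ZBTB16, the libraries kept and the gene lists were chosen with earlier results of these data known. A gene was tested where 20% or more of a fit's libraries reached a CPM of 1, with edgeR 4.0.16 in R 4.3.3 (TMM, quasi-likelihood, group as the only term, Benjamini-Hochberg threshold 0.05). The study fitted each region with DESeq2; DESeq2 1.42.0 was an alternative here, with other scaling and filters, other libraries, each library left out in turn, and the swine as a block. Libraries of the same swine number come from 1 animal, so the numbers pair them: deviations from group means correlated at 0.10 on average within a swine and -0.05 between swine. p-values measure the spread between biopsies of 3 animals. Counts summed per swine, values centred within groups, the fits without swine 5385 and the lists under other settings were added after the data were seen. The scripts were tested on simulated counts. Symbols came from a reference table, which matched 15029 of 31907 identifiers. Sequences and coordinates are from RefSeq's Sscrofa11.1.

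The rule for named genes took the 10 highest and 5 lowest r with ZBTB16 and, per list, the 6 smallest adjusted p in infarcted 1–3 h against 14 days and the 3 highest r.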

Additional observations from a re-analysis of the deposited data

How the results depend on the processing

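Under other tools, scalings, filters and libraries, 93 values of the tested contrasts kept their direction and side of the threshold and 11 changed sign. Both were kept by all but 9 of 128 with 1 library left out. For the contrasts described against baseline, none of 73 with a library left out changed sign, and of 80 under other settings only infarcted 2 days did, to 0.22 without swine 5385. The changes of sign among tested contrasts were all in contrasts near 0. Infarcted 1–3 h against 14 days became -0.0052 with the swine as a block, and with counts summed per swine -0.0043, or -0.056 with the block, with -0.21 to 0.62 over single libraries left out, where -0.21 is without the highest library of swine 1640. Infarcted 0–1 h against 14 days became 0.014 summed, 0.17 summed with the block, and -0.51 to 0.23. The region difference at 0–1 h became 0.14 without the fibrous side, 0.15 summed with or without the block, and -0.44 to 0.14. Without swine 5385 that difference was 0.30, non-infarcted 0–1 h against 14 days was -0.18 and blood at 2 days against 14 days was -0.21. Leaving out single libraries gave -0.21 to 0.40 for the region difference at 14 days, -0.20 to 0.23 for blood and -0.66 to 0.092 for the difference in change. The block changed no call of ZBTB16, and non-infarcted 1–3 h against baseline ran from 0.77, without the library of swine 1644 at 9.43, to 2.06, without its fibrous-side library.

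Mean levels in blood moved most with the libraries. With every library of at least 1000000 counts they were 6.38 at baseline, 6.23 at 1–3 h, 6.20 at 2 days and 6.24 at 14 days, and without TMM scaling 6.04 at 2 days and 5.86 at 14 days. Against 222 genes with r of 0.6 or more, there were 20 by Spearman's rho, 359 centred within swine, 537 centred within groups, 427 in infarcted and 504 in non-infarcted libraries alone, and 0 without the fibrous side.

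The 931 calls at 1–3 h against 14 days were 1944 by DESeq2, 1415 without the fibrous side, 69 with every library of at least 1000000 counts and 0 summed per swine. The 291 against baseline were 1412 by DESeq2, 637 in a single fit of both regions and 0 summed, and with every such library 31 genes were higher, 29.2% of the calls there. Without swine 5385 both counts were 0. The 6852 against blood were 3664 with every such library. With every such library, 1 glucocorticoid-responsive and 1 immediate early gene rose at 1–3 h against 14 days, beside 63 of all 22526 genes. Without the fibrous side 12 and 13 did, beside 834 of 18089.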

Other observations

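The libraries left out were of 3 kinds. In 15 micro-EMB and 10 blood libraries, with under 7% of counts in the 10 most counted genes, ZBTB16 lay at 7.67 to 8.20 (median 7.95) and 6.90 to 7.91 (median 7.81) log2 CPM without TMM scaling, so the tissues were much closer to each other there than in the kept libraries. The 2 micro-EMB libraries with over 60% had 3.33 and 6.26, and 1 blood library held 11505 counts in all.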
